A study of Homo sapiens with 4 samples.

Results

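Kinases of the signalling cascades and the protein phosphatases that oppose them were followed in the hepatoma line HepG2, an established human cell line, with and without knockdown of METTL3. The METTL3 protein is the enzyme of the methyltransferase that writes m6A, N6-methyladenosine, into mRNA. Members were the genes whose symbols, in the authors' deposited gene or isoform table, begin with MAPK, MAP2K, MAP3K, MAP4K, CAMK, PRKA, PRKC, PIK3, STK or NEK on the kinase side and with DUSP, PTPN, PTPR or PPP1 to PPP6 on the phosphatase side (STK, NEK and DUSP only where a digit follows). One gene that these prefixes also match is not analysed here. The rule gave 81 of the 5437 genes present in either table, 42 on the kinase side and 39 on the phosphatase side. Regulatory subunits, scaffolds, inhibitors and pseudogenes with such symbols are included, so a member is not always an enzyme.

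The study had 2 groups of 2 libraries. The knockdown cells received an siRNA against METTL3, and the control cells a scrambled siRNA, although the sample titles and the series call the controls mock. Transfection was repeated in both groups after 48 and 96 hours, and harvest followed on day 7. The libraries are named biological replicates in the series text, without a word on separate cultures, so p-values measure the spread between these samples. The authors' tables list only the features that they called changed, with an adjusted p under 0.05 and, in the gene, isoform and intron tables, at least a 2-fold change. A member outside a table has no value there, and nothing can be said of it. METTL3 itself fell from a mean normalized count of 955 to 241, a 3.96-fold fall (authors' adjusted p = 1.71e-61 in the authors' deposited table). None of the 9 hepatocyte and hepatoma markers looked up, such as ALB and APOA1, was listed as changed, so their levels are unknown here and the cell line could not be checked against them. Of 11 markers of other cell types 6 were listed, with 7 isoforms, 3 higher and 4 lower. The isoform of LUM fell from 210.1 to 41.6 FPKM and both COL3A1 isoforms fell. CDH5 rose from 1.92 to 14.7 FPKM, and SYP rose from 0.599 to 1.54 FPKM. The blood markers differed: CD14 rose from 0.0789 to 0.597 FPKM, and CD68 fell from 2.45 to 1.11 FPKM. The part of such markers in the results below was not tested. In bulk RNA, fewer cells of a type and less RNA per cell cannot be told apart.

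Protein kinases transfer phosphate from ATP to serine, threonine or tyrosine, and protein phosphatases remove it. MAP kinase cascades pass a signal down 3 tiers, in which a MAP3K phosphorylates a MAP2K and the MAP2K phosphorylates a MAP kinase such as ERK, JNK or p38. Dual-specificity phosphatases (DUSP) switch MAP kinases off and are often induced by the same cascades, while PP1 and PP2A act on many substrates through exchangeable regulatory subunits. In liver cells the same families control glycogen storage, the response to glucagon and growth signals.

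Isoforms of 2 genes, one from each side, were chosen for display after their values were seen, and the alternatively used coding exons that separate their rising from their falling forms are shown first. CAMK2G encodes the gamma chain of the calcium/calmodulin-dependent kinase CaMKII. PPP2R4, now named PTPA, encodes an activator of PP2A. Exon sequences were read from GENCODE 29 on GRCh38 by transcript identifier, since the authors' tables use hg18 and give no isoform coordinates. Capitals mark GGAC, the core letters of the preferred m6A context, searched on the transcribed strand only. A match is a description of the letters and not a methylated site.

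The CAMK2G exons lie on the minus strand at chr10:73825279-73825347 (69 bases) and chr10:73819532-73819645 (114 bases), and the PPP2R4 exons on the plus strand at chr9:129123052-129123138 (87 bases) and chr9:129128985-129129110 (126 bases). Each is a whole coding exon whose length is a multiple of 3, so its use keeps the reading frame.
CAMK2G 69-base exon: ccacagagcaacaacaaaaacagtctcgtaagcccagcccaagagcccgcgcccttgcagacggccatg
CAMK2G 114-base exon: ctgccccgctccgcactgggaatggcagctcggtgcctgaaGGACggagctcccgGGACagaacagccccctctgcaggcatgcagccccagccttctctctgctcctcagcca
PPP2R4 87-base exon: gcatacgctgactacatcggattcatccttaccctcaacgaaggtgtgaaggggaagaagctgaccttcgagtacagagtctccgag
PPP2R4 126-base exon: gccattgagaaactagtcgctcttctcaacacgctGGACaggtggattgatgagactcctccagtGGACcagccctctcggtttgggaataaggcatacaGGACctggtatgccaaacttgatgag

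The CAMK2G 114-base exon holds GGAC 2 times and the PPP2R4 126-base exon 3 times, while the other two exons hold none. GGAC was present in 38.2% of all 1625 coding exons of 114 bases in GENCODE 29 and in 42.8% of all 1667 coding exons of 126 bases. In the exons of 69 and 87 bases the shares were 27.9% and 31.6%. These letters are therefore common in exons of such lengths.

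CAMK2G had 6 listed isoforms, the largest number of any member, 3 higher and 3 lower in the knockdown. FPKM, fragments scaled by transcript length and library size, is the single value per group that the authors deposited, with no replicate values. ENST00000322680 was the main listed form in the control and fell from 5.98 to 0.388 FPKM (15.4-fold). ENST00000322635 fell from 2.50 to 0.0293 FPKM (85.5-fold) and ENST00000372765 from 1.43 to 0.204 FPKM (7.02-fold). In the other direction, ENST00000305762 rose from 0.731 to 3.19 FPKM (4.36-fold). ENST00000394762 and ENST00000394763, each at a listed 0 before, reached 2.86 and 2.71 FPKM after knockdown. The listed forms thus exchanged places while the gene itself was not in the gene table.

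The exon structure of 5 of these 6 isoforms is in GENCODE 29. Both rising forms of known structure include the 69-base exon and skip the 114-base exon. Each falling form either lacks the 69-base exon or includes the 114-base exon. Summed over these 5 isoforms, forms without the 69-base exon went from 3.94 to 0.233 FPKM, and forms with it from 6.71 to 6.44 FPKM. ENST00000394763, from a listed 0 to 2.71 FPKM, is of unknown structure and in no sum here, so the sums are incomplete for the knockdown. Among the 5, the one form with the 114-base exon is ENST00000322680, described above, and the 4 forms without it went from 4.67 to 6.28 FPKM in sum. A pair of further alternatively used coding exons, of 33 and 63 bases, did not separate rising from falling forms.

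PPP2R4 had 1 rising and 2 falling listed isoforms. The rising form, ENST00000393370, includes both the 87-base and the 126-base exon and went from 4.72 to 18.9 FPKM (4.01-fold). ENST00000357197, which lacks the 87-base exon, went from 1.01 FPKM to a listed 0, and ENST00000355007, which lacks the 126-base exon, from 0.378 FPKM to a listed 0. The form with both exons was already the main listed form in the control.

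At the level of whole genes, 32 members were in the authors' deposited table under a member symbol, 17 higher and 15 lower in the knockdown. Higher genes made up 53.1% of these members, against 41.3% of all 1977 listed genes. On the kinase side 6 of 12 genes were higher and on the phosphatase side 11 of 20. TAB3, a member only through its older name MAP3K7IP3, fell and is in none of these gene counts. The median log2 fold change was 1.39 over all higher genes of the table and 1.58 over the higher members. Values below are mean normalized counts of each group, and fold changes are ratios of these means. The listed genes are unevenly spread over the families: DUSP gave 8, the tyrosine phosphatases 5 and PPP1 5, while NEK, PI3-kinase, PPP2 and PP6 gave 1 each.

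**Figure D1:**
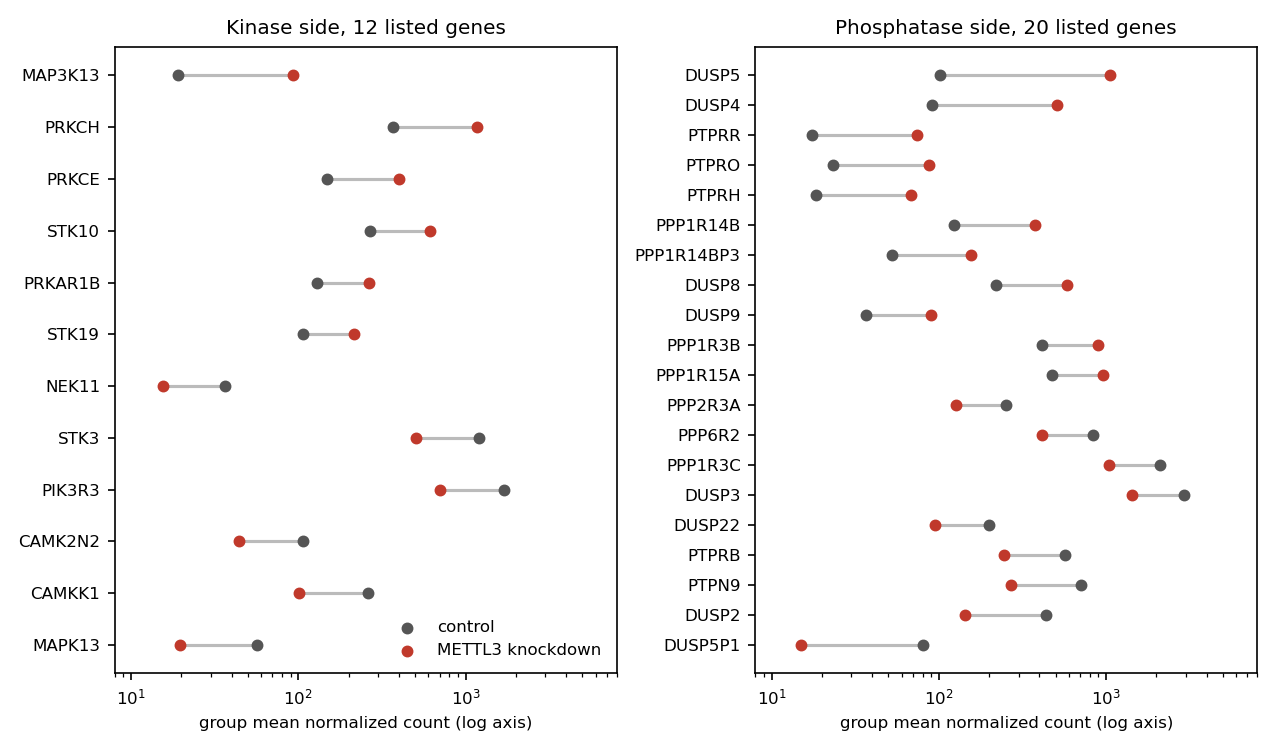
Group mean normalized counts (log axis) of the 12 listed kinase-side and 20 listed phosphatase-side genes, control in grey and METTL3 knockdown in red, ordered by log2 fold change. Each point is the authors' mean of a group, with no replicate values, and DUSP5 at the top right shows the longest shift, from 102 to 1059.

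Among the kinases, the protein kinase C genes rose together. PRKCH, which encodes the eta form, rose from 369 to 1165 normalized counts (3.16-fold), and PRKCE, the epsilon form, from 148 to 400.2 (2.71-fold). Both forms are activated by diacylglycerol without calcium. Each had 1 listed isoform, which rose by a similar factor: PRKCH from 5.69 to 18.1 FPKM and PRKCE from 1.37 to 3.65 FPKM. No other PRKC symbol was listed in the gene or isoform table.

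In the MAP kinase tiers, MAP3K13, the leucine zipper kinase LZK that acts upstream of JNK, rose from 19.2 to 93.4 normalized counts (4.87-fold). MAPK13, the delta form of p38, fell from 56.5 to 19.5 (2.90-fold). TAB3, an adaptor of the kinase TAK1 that the isoform table lists under its older name MAP3K7IP3, fell from 3025 to 1203 normalized counts, and its 3 listed isoforms fell from 12.1 to 3.50, from 8.71 to 3.13 and from 3.98 to 1.67 FPKM. The gene and isoform values of this cascade component moved one way.

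Both listed genes of the calcium branch were lower in the knockdown. CAMKK1, which phosphorylates the kinases CaMKI and CaMKIV, fell from 261 to 100.6 normalized counts (2.59-fold). CAMK2N2, an inhibitor of CaMKII, fell from 107 to 44.0 (2.44-fold). PRKAR1B, a regulatory subunit of the cyclic AMP-dependent kinase, rose from 130 to 265 (2.04-fold). PIK3R3, a regulatory subunit of PI3-kinase, fell from 1706 to 708 (2.41-fold).

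Of the STK genes, STK3 encodes MST2, a core kinase of the Hippo pathway, and fell from 1203 to 507 normalized counts (2.37-fold). STK10, a kinase of the cell cortex also named LOK, rose from 269 to 613 (2.28-fold). STK19 rose from 107 to 217 (2.02-fold), and the isoform table also lists its pseudogene STK19P, from 1.55 to 7.56 FPKM, so reads may have been divided between these copies. NEK11, a kinase of the DNA damage checkpoint, fell from 36.6 to 15.5 (2.36-fold) at an authors' adjusted p of 0.0497 in the authors' deposited table, close to their threshold.

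The phosphatases gave the widest changes at the gene level, and within them the DUSP genes stood at both ends. DUSP5, an inducible nuclear phosphatase of ERK, rose from 102 to 1059 normalized counts, 10.4-fold (authors' adjusted p = 9.91e-107 in the authors' deposited table). DUSP4, also an inducible nuclear MAP kinase phosphatase, rose from 91.6 to 511 (5.58-fold). DUSP8, which acts mainly on JNK and p38, rose from 219 to 586 (2.68-fold), and DUSP9 from 36.9 to 89.5 (2.43-fold).

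The other 4 listed DUSP genes fell. DUSP2, a nuclear phosphatase of ERK first found in activated lymphocytes, fell from 437 to 144 normalized counts (3.04-fold). DUSP3, a small atypical member, fell from 2916 to 1428 (2.04-fold), and DUSP22 from 199 to 95.0 (2.09-fold). The pseudogene DUSP5P1 fell from 80.8 to 15.1 (5.36-fold), opposite to its parent DUSP5. Reads shared by the pair could have been divided by the authors' counting, so the values of DUSP5P1 are uncertain.

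DUSP4 also had 3 listed isoforms, all higher. ENST00000240100 rose from 0.639 to 5.52 FPKM and ENST00000404690 from 1.89 to 6.52 FPKM, while ENST00000240101 went from a listed 0 to 0.388 FPKM. DUSP10 and DUSP16, both phosphatases of JNK and p38, had 1 rising isoform each, from 0.236 to 1.23 and from 0.586 to 1.34 FPKM. DUSP3 had the highest isoform level of the family, falling from 37.2 to 17.8 FPKM. DUSP5 had no listed isoform, so its rise rests on the gene count alone.

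Of the 4 listed receptor tyrosine phosphatase genes, 3 rose. PTPRR, which binds and dephosphorylates ERK, rose from 17.5 to 74.0 normalized counts (4.22-fold). PTPRO rose from 23.4 to 87.8 (3.75-fold) and PTPRH from 18.3 to 68.5 (3.74-fold). PTPRB, known as the vascular endothelial receptor phosphatase, fell from 569.9 to 246 (2.32-fold). Among the non-receptor enzymes, PTPN9 fell from 713 to 272 (2.62-fold).

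The PP1 partners that rose included PPP1R15A, known as GADD34, which directs PP1 to the translation factor eIF2 alpha. It went from 472 to 959.9 normalized counts (2.03-fold). PPP1R14B, an inhibitor of PP1, rose from 123 to 378 (3.08-fold), and its pseudogene PPP1R14BP3 from 52.2 to 157, a pair whose reads may also have been divided. The glycogen-targeting subunits differed: PPP1R3B, the main liver form, rose from 416 to 891 (2.14-fold), whereas PPP1R3C fell from 2110 to 1049 (2.01-fold). PPP2R3A, a regulatory subunit of PP2A, fell from 253 to 126, and PPP6R2, a regulatory subunit of PP6, from 836 to 416, both 2.01-fold. The falls of PPP1R3C, PPP2R3A, PPP6R2, DUSP3 and DUSP22 lie just past the 2-fold limit, and their sign turned when the median of all listed genes, a log2 fold change of -1.10, was subtracted. With that median subtracted and the 2-fold limit kept, 17 member genes were higher and 1 was lower. The table holds no gene within the 2-fold limit, so this subtraction can lose only lower calls and can gain none. A median over called genes only is not a centre of unchanged genes. Any listed fall smaller than that median turns sign by the subtraction itself.

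Promoters were compared because DUSP and PPP1R15A genes are known targets of signal-induced transcription factors. RefSeq promoters on GRCh38.p14, from 250 bases before to 50 after a start, were matched for 23 of the 32 listed member genes, with 40 promoters. No entry was matched for DUSP4, DUSP5, DUSP5P1, PPP1R14BP3, PPP1R3B, PTPRB, STK10, STK19 and STK3. The 3 letter strings searched on both strands, TGACGTCA (cyclic AMP response element), TGANTCA (AP-1) and CCGGAAGT (ETS), were used as written, and none of them contains another. TGACGTCA was found in 3 of the 40 promoters and in 1.85% of all 35116 promoters. The 3 promoters belong to DUSP8, MAP3K13 and PPP1R15A, and that of DUSP8 holds TGACGTCA 2 times. All 3 genes were higher in the knockdown, as were 17 of the 32 listed member genes. The share among the 23 matched genes was not computed, and a link of these letters to the rises was not tested. The 3 promoters were chosen for display after their values were seen. TGANTCA was found in 1 member promoter, that of PTPN9, and in 7.71% of all promoters, and CCGGAAGT in none and in 4.14%.

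The displayed promoters are those of DUSP8 (chr11:1572222-1572521, minus strand), MAP3K13 (chr3:185282711-185283010, plus strand) and PPP1R15A (chr19:48872171-48872470, plus strand), with TGACGTCA in capitals.
DUSP8 promoter: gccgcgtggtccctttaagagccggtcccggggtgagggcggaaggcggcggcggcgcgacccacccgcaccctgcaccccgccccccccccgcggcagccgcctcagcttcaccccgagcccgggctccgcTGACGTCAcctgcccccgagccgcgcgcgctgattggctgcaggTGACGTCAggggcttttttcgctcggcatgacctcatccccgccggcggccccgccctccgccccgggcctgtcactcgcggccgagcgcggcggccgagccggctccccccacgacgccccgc
MAP3K13 promoter: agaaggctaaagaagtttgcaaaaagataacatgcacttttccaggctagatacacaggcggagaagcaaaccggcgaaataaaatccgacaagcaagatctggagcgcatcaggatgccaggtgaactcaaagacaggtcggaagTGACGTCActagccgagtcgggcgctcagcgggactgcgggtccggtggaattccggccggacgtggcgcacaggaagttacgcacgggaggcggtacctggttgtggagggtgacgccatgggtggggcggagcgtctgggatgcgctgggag
PPP1R15A promoter: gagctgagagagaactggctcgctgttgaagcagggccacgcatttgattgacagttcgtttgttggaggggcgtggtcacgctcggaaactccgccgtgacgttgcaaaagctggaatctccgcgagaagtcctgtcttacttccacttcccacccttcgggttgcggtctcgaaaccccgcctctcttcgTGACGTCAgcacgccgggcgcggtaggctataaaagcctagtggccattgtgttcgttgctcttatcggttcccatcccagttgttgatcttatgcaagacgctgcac

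Isoforms were listed for 76 members, 113 in all, 63 higher and 50 lower. The higher share was 55.8%, against 46.7% of all 7251 listed isoforms. On the kinase side 32 of 60 isoforms were higher (53.3%), and on the phosphatase side 31 of 53 (58.5%). When only catalytic members were counted, the sides stood at 59.1% of 44 and 57.9% of 38. No test was made between the sides, because isoforms of one gene share reads and the table holds called isoforms only. Both sides held rising and falling isoforms in similar numbers. With the median of all listed isoforms subtracted and the 2-fold limit kept, 63 member isoforms were higher and 15 lower, a count in which, as for genes, only lower calls could be lost. Among isoforms not at 0 the median log2 fold change was 1.67 over the higher and -1.47 over the lower members, against 1.58 and -1.54 over all listed isoforms.

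Most of these isoforms were of low abundance. Of the 113, 24 were under 1 FPKM in both groups and 22 had a mean of 5 FPKM or more. There were 12 isoforms listed at 0 in the control and 7 listed at 0 in the knockdown. When 1 FPKM was added to both groups, 29 higher and 23 lower isoforms kept a 2-fold change.

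**Figure D2:**
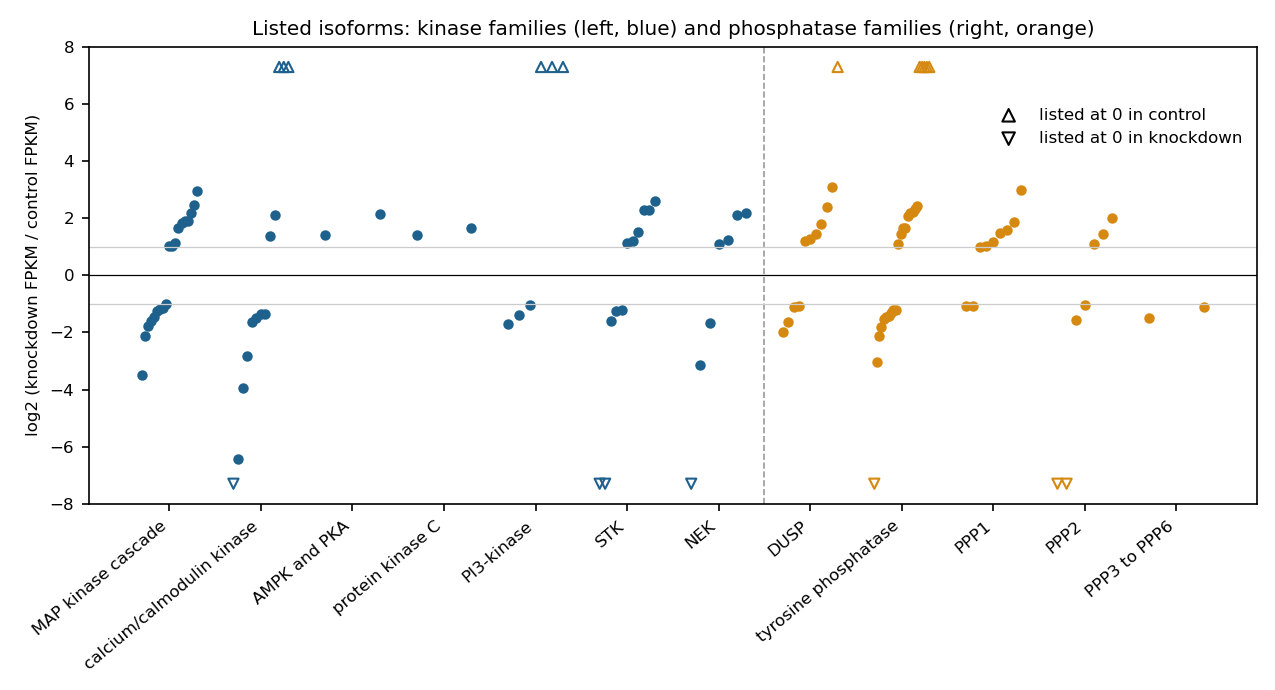
Log2 ratio of knockdown to control FPKM for each of the 113 listed isoforms by family, kinase families left of the dashed line and phosphatase families right of it. Grey lines mark the 2-fold limit and open triangles the 19 isoforms listed at 0 in a group, and points lie on both sides in most families. PPP1 has 7 of 9 higher, PPP2 has 3 of 7 and PPP3, both isoforms of PPP3CB, has none.

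In the MAP kinase cascade family 10 of 19 isoforms were higher. MAPKAPK2, the kinase MK2 that p38 activates, had the highest level, rising from 3.60 to 13.5 FPKM. MAP2K3, an activator of p38, had 2 rising isoforms: ENST00000395491, from 0.286 to 2.20 FPKM, is annotated as a target of nonsense-mediated decay in GENCODE 29, and ENST00000395492 rose from 0.536 to 2.96 FPKM. MAP3K15 fell from 0.441 to 0.0393 FPKM, the widest fall in the family but at a low level. MAP2K7, an activator of JNK, rose from 0.633 to 2.34 FPKM, and MAP2K5, the activator of ERK5, fell from 2.06 to 0.675 FPKM.

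Among the other kinases, PRKAA1, a catalytic subunit of the energy sensor AMPK, had an isoform that rose from 1.54 to 6.82 FPKM. CAMK1D fell from 5.75 to 2.24 FPKM. Both listed PIK3R3 isoforms fell, ENST00000372006 from 9.95 to 3.08 FPKM, and a PIK3R1 isoform fell from 0.685 to 0.265 FPKM. Both listed PIK3CD isoforms and the PIK3R5 isoform were listed at 0 in the control and stayed below 0.2 FPKM in the knockdown, all low values. STK3 was the most abundant STK isoform, falling from 25.7 to 10.8 FPKM, and STK40, a pseudokinase, rose from 0.947 to 4.65 FPKM. NEK6 had 2 rising isoforms, from 2.15 to 5.08 and from 0.272 to 1.17 FPKM, and NEK11 fell from 0.472 to 0.0532 FPKM.

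Among the PP1 members, the isoform of PPP1R3C had the highest mean over both groups, falling from 44.6 to 21.3 FPKM. In the knockdown that of PPP1R14B was the highest, rising from 15.9 to 44.4 FPKM. PPP1R11, an inhibitory subunit, had 2 rising isoforms, ENST00000376763 from 6.16 to 22.3 FPKM and ENST00000376769 from 3.76 to 11.2 FPKM. PPP1R8, a nuclear inhibitor of PP1, rose from 0.444 to 3.49 FPKM. A PPP1CA isoform, of the catalytic subunit, fell from 1.99 to 0.935 FPKM. PPP3CB, a catalytic subunit of calcineurin, had 2 falling isoforms, from 17.1 to 7.98 and from 10.2 to 3.64 FPKM.

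Of the 24 members with 2 or more listed isoforms, 12 had isoforms in both directions. Over all genes with 2 or more listed isoforms the share was 41.3%, 548 of 1327. The mixed members were 7 of 13 on the kinase side and 5 of 11 on the phosphatase side. One of the 12, MAPK8IP3, is uncertain: its rising isoform ENST00000382686, from 1.26 to 2.59 FPKM, belongs to ATXN2L in GENCODE 29, and 11 members remain without it. The other MAPK8IP3 isoform, of a JNK scaffold, fell from 1.89 to 0.434 FPKM. STK19 was the only mixed member in the gene table, with ENST00000395649 rising from 0.774 to 4.73 FPKM and ENST00000375338 going from 0.325 FPKM to a listed 0.

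**Figure D3:**
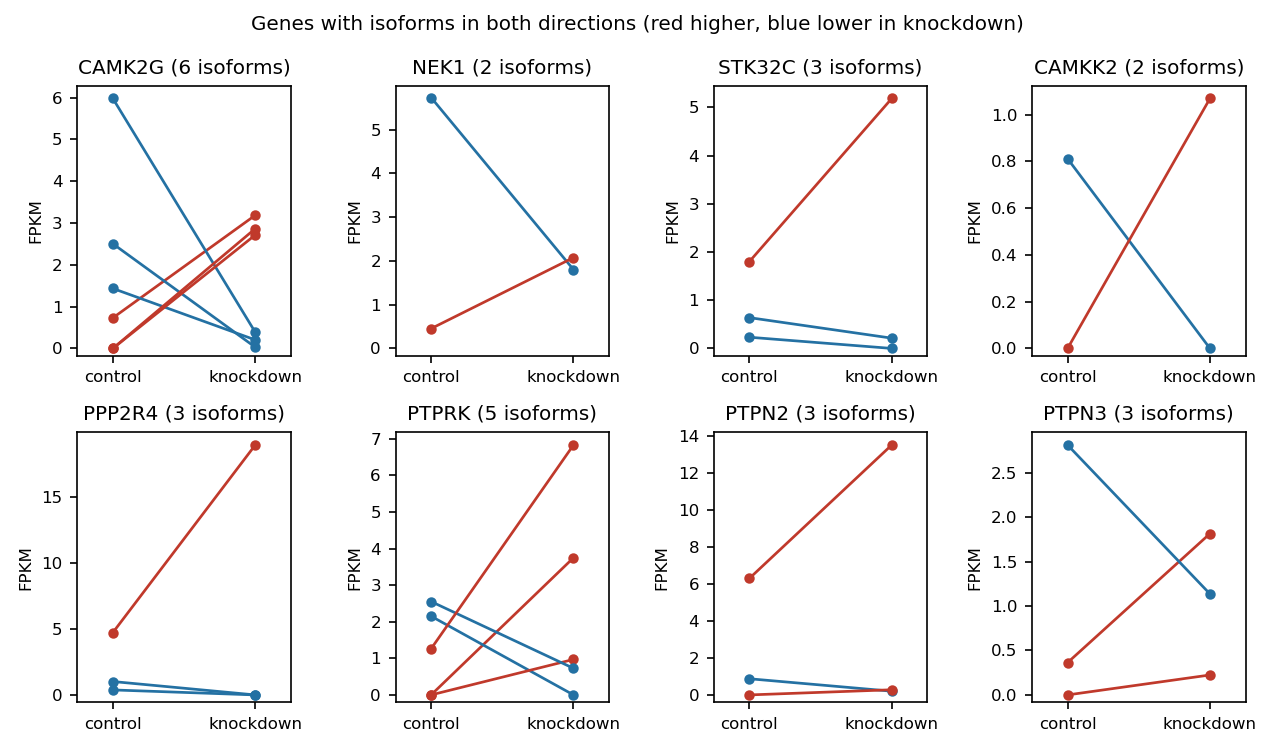
FPKM in control and knockdown of every listed isoform of 8 members with isoforms in both directions, red for higher and blue for lower in the knockdown. Each point is the authors' single group value, and in CAMK2G the main control form drops from 5.98 to 0.388 FPKM while 3 others rise to between 2.71 and 3.19 FPKM.

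On the kinase side, NEK1, a kinase of primary cilia and DNA repair, had ENST00000308881 falling from 5.73 to 1.801 FPKM and ENST00000379072 rising from 0.453 to 2.08 FPKM. CAMKK2, an upstream kinase of AMPK, had an isoform going from 0.811 FPKM to a listed 0 and another from a listed 0 to 1.07 FPKM. MAP3K6 had a form falling from 1.76 to 0.772 FPKM and a form rising from 0.288 to 0.908 FPKM. STK32C had ENST00000368619 rising from 1.8004 to 5.18 FPKM, while ENST00000368620 fell from 0.639 to 0.213 FPKM and ENST00000368622 went from 0.232 FPKM to a listed 0. In NEK1 the forms reached nearly equal levels, whereas in STK32C the rising form was already the main one.

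On the phosphatase side, PTPRK, a receptor phosphatase of cell contacts, had 3 rising and 2 falling isoforms. The falling ENST00000368226, from 2.55 to 0.728 FPKM, is annotated as protein coding in GENCODE 29, and ENST00000368204 went from 2.15 FPKM to a listed 0. None of the 3 rising forms is annotated as protein coding there. ENST00000392449, a nonsense-mediated decay transcript, rose from 1.26 to 6.83 FPKM, and the processed transcripts ENST00000368202 and ENST00000368205 went from a listed 0 to 3.75 and 0.971 FPKM.

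PTPN2, a phosphatase of JAK and STAT proteins, had its main form ENST00000341361 rising from 6.30 to 13.5 FPKM and ENST00000309660 falling from 0.874 to 0.201 FPKM. One more form, ENST00000353319, went from a listed 0 to 0.279 FPKM. PTPN3 had ENST00000374541 falling from 2.81 to 1.14 FPKM, ENST00000262539 rising from 0.364 to 1.82 FPKM and ENST00000394827 going from a listed 0 to 0.224 FPKM. PPP2R2B, a regulatory subunit of PP2A, had a form falling from 5.59 to 1.91 FPKM and another rising from 0.682 to 1.48 FPKM. PTPRA had 2 listed isoforms, both lower, ENST00000399903 from 3.22 to 0.394 FPKM and ENST00000380393 from 4.20 to 1.54 FPKM.

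The gene and isoform tables shared 28 members, 27 by symbol and MAP3K7IP3 by its newer name TAB3. In 27 of the 28 every listed isoform moved in the direction of the gene, the exception being STK19. Both tables come from the same libraries, so this is no independent support, and the same share was not computed over all genes in both tables. Another 48 members had listed isoforms only, newer names considered, among them CAMK2G, PTPRK and PPP2R4, and 5 were in the gene table only.

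Of the 474 listed exons, 9 carry such gene symbols, in 8 loci, and these have a value in each library. PTPN3, PPP1R12A and STK32C are members, while MAP4K5, MAPK9, MAP3K12 and the merged loci PPP1R7+PASK and SNAPC5+MAP2K1 are in neither the gene nor the isoform table. With limma, all 9 passed at an adjusted p under 0.05, but 96.2% of all listed exons did, since the authors had chosen them from these libraries. Of the 9, 8 were lower and 1 higher in the knockdown, where 30.6% of all 474 listed exons passed as higher, and the groups did not overlap in any of them, nor in 98.9% of all listed exons. With the median of all listed exons, -1.23 on the log2 scale, subtracted, 3 of the 9 passed as higher and 1 as lower. That median is taken over called exons only, so it is not a centre of unchanged exons. A call as higher after the subtraction need not be a rise in counts.

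STK32C exon 18 had 12.6 and 29.7 normalized counts in controls 1 and 2, against 76.4 and 87.2 in knockdowns 1 and 2. Both knockdown values lie above both controls, and the limma log2 fold change was 2.02 (SE 0.43, adjusted p = 0.00986). The main listed isoform of the gene rose as well, but whether that isoform contains this exon was not checked. MAPK9 encodes JNK2, and its exon 12 had 103 and 85.3 normalized counts in the controls, against 14.8 and 15.8 after knockdown. This was the widest fall, a limma log2 fold change of -2.54 (SE 0.17, adjusted p = 0.00073).

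PPP1R12A, the myosin phosphatase targeting subunit, had 56.6 and 39.3 normalized counts at exon 2 in the controls, against 7.81 and 16.7 after knockdown. The limma log2 fold change was -1.95 (SE 0.41, adjusted p = 0.00948), while the listed isoform of the gene rose from 6.91 to 15.5 FPKM. Exon and isoform thus moved in opposite directions in this gene, but whether that isoform contains this exon was not checked. PTPN3 exon 1 had 131 and 159 normalized counts in the controls, against 75.5 and 49.2 after knockdown, a limma log2 fold change of -1.23 (SE 0.27, adjusted p = 0.0107).

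SNAPC5+MAP2K1 exon 4 had 91.8 and 100.6 normalized counts in the controls, against 37.3 and 34.3 after knockdown (limma log2 fold change -1.40, SE 0.15). PPP1R7+PASK exon 42 had 60.4 and 43.1 in the controls, against 16.5 and 16.7 after knockdown (-1.56, SE 0.22). In both loci neighbouring genes were merged by the authors, so the exon cannot be given to one gene. The remaining exons fell less: MAP4K5 exon 7 by 0.66 and exon 8 by 0.99, and MAP3K12 exon 1 by 0.62 on the log2 scale. The sign of these 3 exons and of PTPN3 exon 1 turned when the median of all listed exons was subtracted. In each of them both knockdown counts nevertheless lay below both control counts. MAP4K5 and MAP3K12 both encode kinases upstream of JNK.

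**Figure D4:**
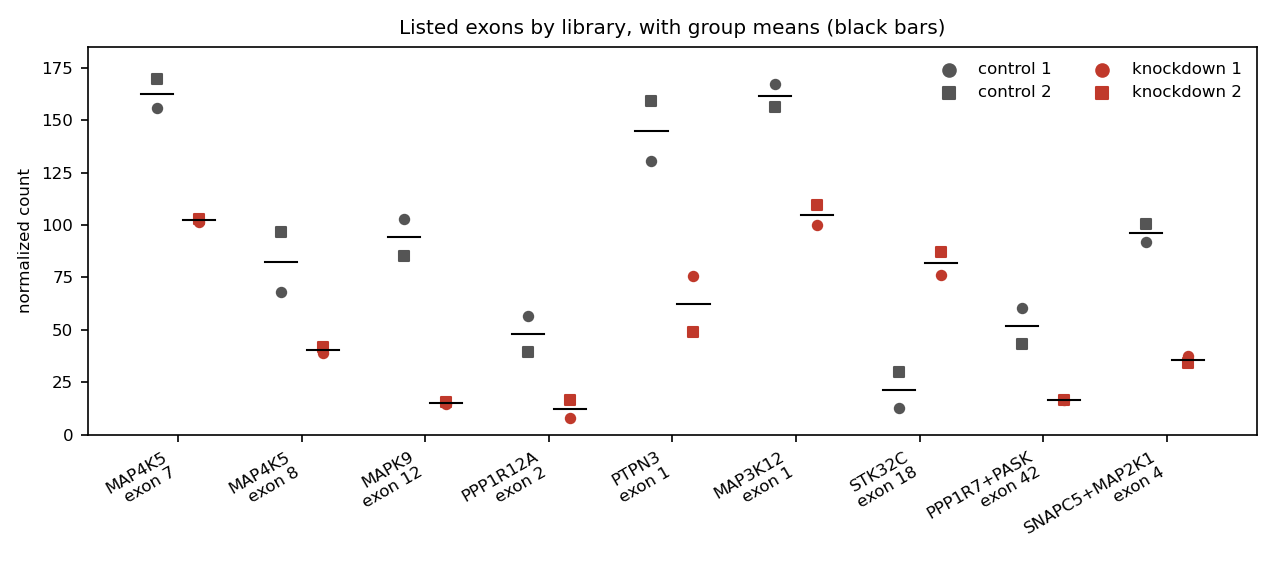
Normalized counts of the 9 listed exons in each of the 4 libraries, control in grey and knockdown in red, circles for replicate 1 and squares for replicate 2, with black bars at group means. STK32C exon 18 is the one exon that is higher in the knockdown, with means of 21.1 and 81.8.

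Leaving out one library ended several exon calls, each keeping its direction. PPP1R12A exon 2 was lost without either control library and without knockdown replicate 1, with log2 fold changes of -1.69, -2.20 and -1.44. PTPN3 exon 1 was lost without either control library and without knockdown replicate 2 (-1.37, -1.09 and -0.92). STK32C exon 18 had log2 fold changes of 1.43 without control replicate 1 and 2.61 without control replicate 2, against 2.02 with all libraries. STK32C exon 18 (2.11 and 1.92), MAP4K5 exon 8 (-0.94 and -1.03) and PPP1R7+PASK exon 42 (-1.56 and -1.57) were lost without knockdown replicate 1 and without replicate 2. MAP3K12 exon 1 was lost without knockdown replicate 1 (-0.56). MAPK9 exon 12, MAP4K5 exon 7 and SNAPC5+MAP2K1 exon 4 passed in all of these fits.

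In the intron table, 40 introns in 35 loci carried such symbols, 17 higher and 23 lower. The higher share was 42.5%, against 28.3% of all 2672 listed introns. With the median of all listed introns subtracted and the 2-fold limit kept, 17 were higher and 9 lower, again with only lower calls open to loss. On the kinase side 8 of 16 introns were higher and on the phosphatase side 9 of 24. Of the 35 loci, 12 belong to members, 1 is the merged locus VPS16+PTPRA, whose intron cannot be given to one gene, and 22 belong to family genes in neither the gene nor the isoform table. Reads in an intron can come from unspliced RNA, a retained intron or an unannotated exon, which cannot be told apart here.

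There were 5 loci with 2 listed introns each, and both introns moved the same way in all 5. The same share was not computed over all loci, and 71.7% of all listed introns were lower, so such agreement is not shown to be particular to these loci. MAPK10, the JNK form best known from neurons, fell at intron 14 from 48.8 to 1.24 normalized counts and at intron 15 from 57.8 to 6.58. DUSP19 fell at intron 1 from 18.8 to 0.820 and at intron 3 from 20.1 to 1.62, and PTPRT at intron 16 from 22.7 to 0.420 and at intron 17 from 23.2 to 1.22. DUSP5P1 fell at introns 4 and 5, from 71.7 to 17.3 and from 179 to 34.4. MAPKAP1, a subunit of the kinase complex mTORC2, rose at intron 2 from 45.3 to 136 and at intron 4 from 48.2 to 140 normalized counts.

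Listed introns were also found for 5 members of the gene table, and in each of these the intron moved with the gene: DUSP4, STK10 and PRKAR1B upward, PPP6R2 and DUSP5P1 downward. The same share was not computed over all listed genes, so this is not shown to be particular to the members. Members with listed isoforms only are outside this count, and in PTPN11 intron 2 was lower while the listed isoform was higher. DUSP4 intron 3 rose from 5.57 to 43.9 normalized counts, and STK10 intron 6 from 35.3 to 131. Of the other introns, PPP2R2C intron 3 went from a listed 0 to 22.7 normalized counts.

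Partners of these cascades were taken from 4 lists, and their counts stand beside the 41.3% of genes and 46.7% of isoforms that were higher over all listed features. Of 39 partners of the ERK, JNK and p38 cascades 5 were in the gene table, 2 higher (JUN and SPRY4) and 3 lower (MEF2C, RPS6KA5 and TAB3, the last also counted above), with 12 isoforms higher and 13 lower. JUN, an AP-1 transcription factor phosphorylated by JNK, rose from 105 to 223 normalized counts, and RPS6KA5, the kinase MSK1 downstream of ERK and p38, fell from 380 to 95.1. Of 34 partners of PI3K, AKT and mTOR 4 were listed as genes, 2 in each direction, with 7 isoforms higher and 6 lower. Of 54 partners in cyclic AMP and calcium signalling 1 gene was higher and 4 were lower, with 14 isoforms higher and 20 lower. Of 18 Hippo partners 1 gene was listed, MOB1A, an activator of the LATS kinases, which fell from 2614 to 826 normalized counts beside the fall of STK3, and 3 isoforms were higher and 5 lower.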

How the data were processed

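RNA of 4 HepG2 libraries was read from the authors' 4 deposited tables. Build hg18 and the tools TopHat 1.2.0, DESeq 1.5.24, Cuffdiff 1.0.3, Cufflinks, HTSeq and CASAVA 1.8 are named, without roles, per the submitters' processing notes. Gene and intron tables hold a normalized count signal as group means, per the file headers. The isoform table holds 1 FPKM per group, and the exon table a normalized count signal per library, per the file headers. The p-values are those the authors deposited, raw and adjusted. Library totals are unknown, and no source used here states the use of strand in counting.

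Gene identifiers were given symbols for 1795 of 1977 genes. Ratios were computed from the group values, and none against a 0. The exon test was limma (version 3.58.1, R 4.3.3), knockdown against control, on log2(value + 1), Benjamini-Hochberg adjusted over 474 exons, a scale that understates changes of low exons; the step was tested on simulated data. An exact permutation test of 2 against 2 libraries cannot go below p = 0.333. Isoform types and exons came from GENCODE 29, which holds 75.2% of the members' isoforms, too few for a check of type or length over the set.

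Members and lists were chosen with earlier results of these data known. Named were all members in the gene and exon tables, members with mixed or at least 3 isoforms, those with 2 introns, and per family the isoform of highest mean and the 2 of widest change. The alternatives were stricter p and level limits, pseudocounts, recentring on the median of all listed features, 1 feature per gene, catalytic members only, a replicate block and leaving out libraries. Leaving out pseudogenes, or the isoform of another gene, was added after seeing the data.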

Additional observations from a re-analysis of the deposited data

How the results depend on the processing

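Recentring can lose only lower calls in the gene, isoform and intron tables, which hold no feature within the 2-fold limit. The median subtracted is that of called features only, so it is not a centre of unchanged features. Falls smaller than that median turn sign by the subtraction itself. With the median log2 fold change of all listed features subtracted and the 2-fold limit kept, the lower members numbered 1 gene, 15 isoforms and 9 introns, and the higher isoforms made up 76.2% on the kinase and 86.1% on the phosphatase side. Signs turned to slightly positive for the genes DUSP22 (0.035), DUSP3 (0.069), PPP1R3C (0.092), PPP2R3A (0.095) and PPP6R2 (0.092). They also turned for the isoforms of MAPKBP1 (0.088), PIK3R3 ENST00000262741 (0.042), DUSP22 (0.00069), DUSP3 (0.030), PPP1CA (0.0088), PPP1R3C (0.030) and PPP2R3A (0.042), and for the introns of PTPN18 (0.085), DUSP12 (0.22), STK38 (0.11), STK17A (0.21) and DUSP8P1 (0.28). Of the exons, MAP4K5 exons 7 and 8 (0.57 and 0.25), PTPN3 exon 1 (0.0060) and MAP3K12 exon 1 (0.61) turned, leaving 3 higher and 1 lower exon past the threshold. The counts of the turned exons were lower in both knockdown libraries than in both controls, so a turned sign is not a rise in counts.

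A mean of at least 5 FPKM left 11 higher and 11 lower isoforms, and a pseudocount of 1 FPKM 29 and 23. An adjusted p under 0.01 left 10 higher introns, and a mean of at least 50 left 12 lower introns. Leaving out 1 library gave 0 to 1 higher and 4 to 6 lower exons, a lone library being assumed to vary like the other group.

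Deviations of same-numbered libraries had a correlation of 0.0012 over 474 exons. With 2 libraries per group and exons chosen for a group difference, this value cannot settle whether the labels' numbers pair the libraries. With the replicate block 1 exon was higher and 8 were lower, as without it. The other counts stayed within 1.5 times. Under the alternatives other than recentring, the higher isoforms made up 42.9% to 63.0% on the kinase side and 48.0% to 57.9% on the phosphatase side.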
